A study of Mus musculus with 4 samples.

Results

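Epha5, Brinp3 and Cpne8 are 3 of the 32285 genes counted in single cells of Kit+ CD45.2+ mouse bone marrow, taken 10 weeks after transplantation. They were selected on their counts in B-cell progenitors, near 0 in the other libraries and high in the library with both Mll3 and Mll4 deleted, so that difference is described here and not tested. The study had 4 groups with 1 library each, namely control marrow and marrow labelled Mll3 deleted, Mll4 deleted or Mll3/4 deleted. The genes Kmt2c and Kmt2d encode Mll3 and Mll4. RNA was captured at its 3′ end on the 10x Genomics platform together with 13 barcoded surface antibodies and 2 hashtags, which are antibodies used to mark cells before pooling. The strain, the number of animals, the deletion driver, the deleted exons and the meaning of each hashtag are not given in the sources used here. Sorting on Kit keeps progenitors and leaves out most mature cells, and CD45.2 is an allele commonly used to tell donor from host cells. With 1 library a group, every interval below is a 95% interval for counting error alone, and every comparison is between libraries and not between genotypes.

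MLL3 and MLL4 are related histone methyltransferases that act within COMPASS-like complexes and are best known for marking enhancers. Epha5 encodes a receptor tyrosine kinase of the Eph family. It binds ephrin-A ligands, which are anchored to the surface of neighbouring cells, and is best known for guiding axons. Brinp3 encodes a member of the BRINP family, named for induction by bone morphogenetic protein and retinoic acid in neural cells. Cpne8 encodes a copine, a protein that binds membrane phospholipids when calcium rises. B-cell progenitors turn on Ebf1 and Pax5, the transcription factors that set the B lineage, and assemble the pre-B-cell receptor from Igll1, Vpreb1 and Cd79a.

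The sequences around the annotated starts are shown first, because the 3 genes differ in the base composition there. On GRCm38, GENCODE M21 places Epha5 (ENSMUSG00000029245) on the minus strand of chromosome 5, from 84054761 to 84417382. Brinp3 (ENSMUSG00000035131) lies on the plus strand of chromosome 1, from 146494760 to 146902472. Cpne8 (ENSMUSG00000052560) lies on the minus strand of chromosome 15, from 90487482 to 90679432. All 3 are protein-coding genes, and none shares a chromosome with another. The stretches below are RefSeq promoters of build GRCm38.p6 with 250 bases before and 50 after the start, printed 5′ to 3′ on the strand of the gene, with each CG dinucleotide in capitals. They are chr5:84417333-84417632 (minus) for Epha5, chr1:146495379-146495678 (plus) for an upstream start of Brinp3, chr1:146497437-146497736 (plus) for a downstream start of Brinp3, and chr15:90679339-90679638 (minus) for Cpne8.
Epha5: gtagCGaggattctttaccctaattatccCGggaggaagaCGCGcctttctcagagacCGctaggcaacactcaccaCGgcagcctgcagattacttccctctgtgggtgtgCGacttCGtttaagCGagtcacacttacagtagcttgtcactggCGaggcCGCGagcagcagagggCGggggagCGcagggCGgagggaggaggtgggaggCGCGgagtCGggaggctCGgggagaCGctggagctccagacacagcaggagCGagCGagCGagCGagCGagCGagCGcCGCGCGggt
Brinp3 upstream start: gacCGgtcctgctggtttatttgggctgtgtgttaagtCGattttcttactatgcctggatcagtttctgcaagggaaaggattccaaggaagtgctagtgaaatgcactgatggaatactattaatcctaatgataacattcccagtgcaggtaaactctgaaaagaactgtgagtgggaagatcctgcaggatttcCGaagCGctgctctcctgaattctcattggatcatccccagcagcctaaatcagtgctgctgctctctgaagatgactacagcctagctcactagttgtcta
Brinp3 downstream start: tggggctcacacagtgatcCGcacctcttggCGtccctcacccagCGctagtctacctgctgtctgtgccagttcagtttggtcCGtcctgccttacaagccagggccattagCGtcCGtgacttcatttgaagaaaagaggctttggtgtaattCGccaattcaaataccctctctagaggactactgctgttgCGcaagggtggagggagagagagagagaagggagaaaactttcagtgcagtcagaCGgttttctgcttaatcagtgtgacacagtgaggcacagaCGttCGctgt
Cpne8: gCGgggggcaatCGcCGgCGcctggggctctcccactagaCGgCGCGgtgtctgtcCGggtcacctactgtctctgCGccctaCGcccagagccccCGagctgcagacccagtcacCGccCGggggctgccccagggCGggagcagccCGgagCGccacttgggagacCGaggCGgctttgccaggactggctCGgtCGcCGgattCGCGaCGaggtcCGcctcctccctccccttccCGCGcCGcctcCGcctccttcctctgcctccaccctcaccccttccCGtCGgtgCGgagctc

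The Epha5 stretch held 30 CG dinucleotides and was 64.3% G or C, and the Cpne8 stretch held 32 and was 73.7% G or C. Of 32851 RefSeq promoters of the same length, with a median of 7 CG dinucleotides, 88.3% had fewer than Epha5 and 90.5% had fewer than Cpne8. Brinp3 had 3 RefSeq starts. The upstream start held 4, a start close to it held 3, and the downstream start, which coincides with a GENCODE transcript start, held 11 at 52.3% G or C. So the starts of Epha5 and Cpne8 lay in CG-rich sequence and those of Brinp3 lay closer to the typical promoter. On both strands, 7 short motifs were searched. The letters TGGGAA, a core recognised by Ikaros, occurred 2 times at the upstream Brinp3 start and occur in 25.6% of all promoters of this length. The letters CCCNNGGG, a core of the EBF1 motif, occurred 2 times at the Cpne8 start and occur in 13.7% of promoters. The E-box CAGGTG, the Runx core TGTGGT, the PU.1 site GAGGAAGT, the TATA box TATAAA and the half-site TTCAGCACC of the neural repressor REST had no match in any of the stretches.

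The deposited files held 6622 to 10001 barcodes and 36413830 to 174795636 gene UMIs (unique molecular identifiers, counts of captured RNA molecules) per library. After filters, 25273 cells remained, with median depths of 5142 UMIs per cell for Mll4-deleted, 9965 for Mll3/4-deleted, 15754 for control and 16963.5 for Mll3-deleted cells. Pairs of libraries shared between 9 and 24 barcodes. The Mll4-deleted library differed from the others in Xist, the RNA that silences an X chromosome in females, with 0.519 CPM (counts scaled to the same total in each library) against 955 to 1839. The deleted part of Kmt2c and Kmt2d is not given, so the 3′ tags of these genes do not check the labels. In B-cell progenitors, Kmt2c stood at 45.3 CPM in control, and at 25.003, 36.5 and 34.6 CPM with Mll3, Mll4 and Mll3/4 deleted. Kmt2d stood at 40.2, 25.3, 16.8 and 24.7 CPM in the same order.

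B-cell progenitor-like cells were taken from clusters named by 10 markers, with the 3 genes kept out of the clustering. Control held 471 of them, and 369, 143 and 6830 came from Mll3-deleted, Mll4-deleted and Mll3/4-deleted marrow. Each of the 10 markers, among them Ebf1, Pax5 and Rag1, had a UMI in at least 10% of these cells in every library. The cells of the Mll3/4-deleted library nearly all fell in clusters of their own. Of its 6830 cells, 6 shared the pair of clusters, numbered 0 and 16, that held most of the control and single-deletion cells. Their leading genes by fold, which helped define the clusters, differed too: Vpreb1 and Vpreb3 led in the shared pair, and Gria2, Rnase12, Il7r and Bfsp2 were prominent in the clusters of the Mll3/4-deleted library.

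In these cells Epha5 had 1 UMI in control (0.314 CPM) and none with Mll3 deleted. It had 17 with Mll4 deleted (47.7 CPM) and 11496 with Mll3/4 deleted (151.5 CPM, 148.7 to 154.3). The Mll3/4-deleted library was the highest and the Mll4-deleted library stood between it and the other pair. Brinp3 had 0 UMIs in control and in both single-deletion libraries, against 5539 in the Mll3/4-deleted library (73.0 CPM, 71.1 to 74.9). Cpne8 had 1 UMI in control (0.314 CPM), 0 in both single-deletion libraries and 8227 in the Mll3/4-deleted library (108.4 CPM, 106.1 to 110.8).

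The depth behind the zeros differed. A count of 0 allows up to 3 counts, which was 0.943 CPM for control, 1.04 CPM for Mll3-deleted cells and 8.42 CPM for the Mll4-deleted library, whose B-cell progenitors held 356232 UMIs. Against control, the ratio was 482-fold for Epha5 (86.5 to 19041) and 345-fold for Cpne8 (61.9 to 13627), each resting on 1 control UMI. Brinp3 was at least 77.4-fold higher, with the control set to 3 counts over its B-cell progenitors. With a pseudocount of 1 CPM the log2 ratios were 6.86 (5.77 to 7.27) for Epha5, 6.38 (5.28 to 6.79) for Cpne8 and 6.21 (5.06 to 6.25) for Brinp3. These ranked 1, 2 and 3 among 13456 genes with at least 20 counts in either library, of which 9.45% were higher by a log2 ratio of 1 or more and 0.163% by 5 or more. The next were Ighv1-23 at 6.19, Ly6c1 at 6.001 and Rnase10 at 5.90. Since this contrast chose the genes, the ranks are a description.

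A single control cell carried both control UMIs, 1 of Epha5 and 1 of Cpne8. It was also the only control cell in cluster 22, which held 3148 cells of the Mll3/4-deleted library and 1 cell of the Mll4-deleted library. That Mll4-deleted cell had 1027 gene UMIs and 0 UMIs of the 3 genes. The control cell held 2779 gene UMIs and 9 of the 10 B-cell progenitor markers, and its barcode was not among those of the Mll3/4-deleted library. The other 470 control cells held 0 UMIs of each of the 3 genes in 3179135 gene UMIs, and without that cell Epha5 was at least 160.5-fold higher and Cpne8 at least 114.9-fold higher in the Mll3/4-deleted library. In the other direction, the 6 cells of the Mll3/4-deleted library in clusters 0 and 16 held 0 UMIs of the 3 genes. They were shallow in total, 35186 UMIs in cluster 0 and 22350 in cluster 16, so that a count of 0 allows up to 85.3 CPM and 134 CPM there.

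**Figure D1:**
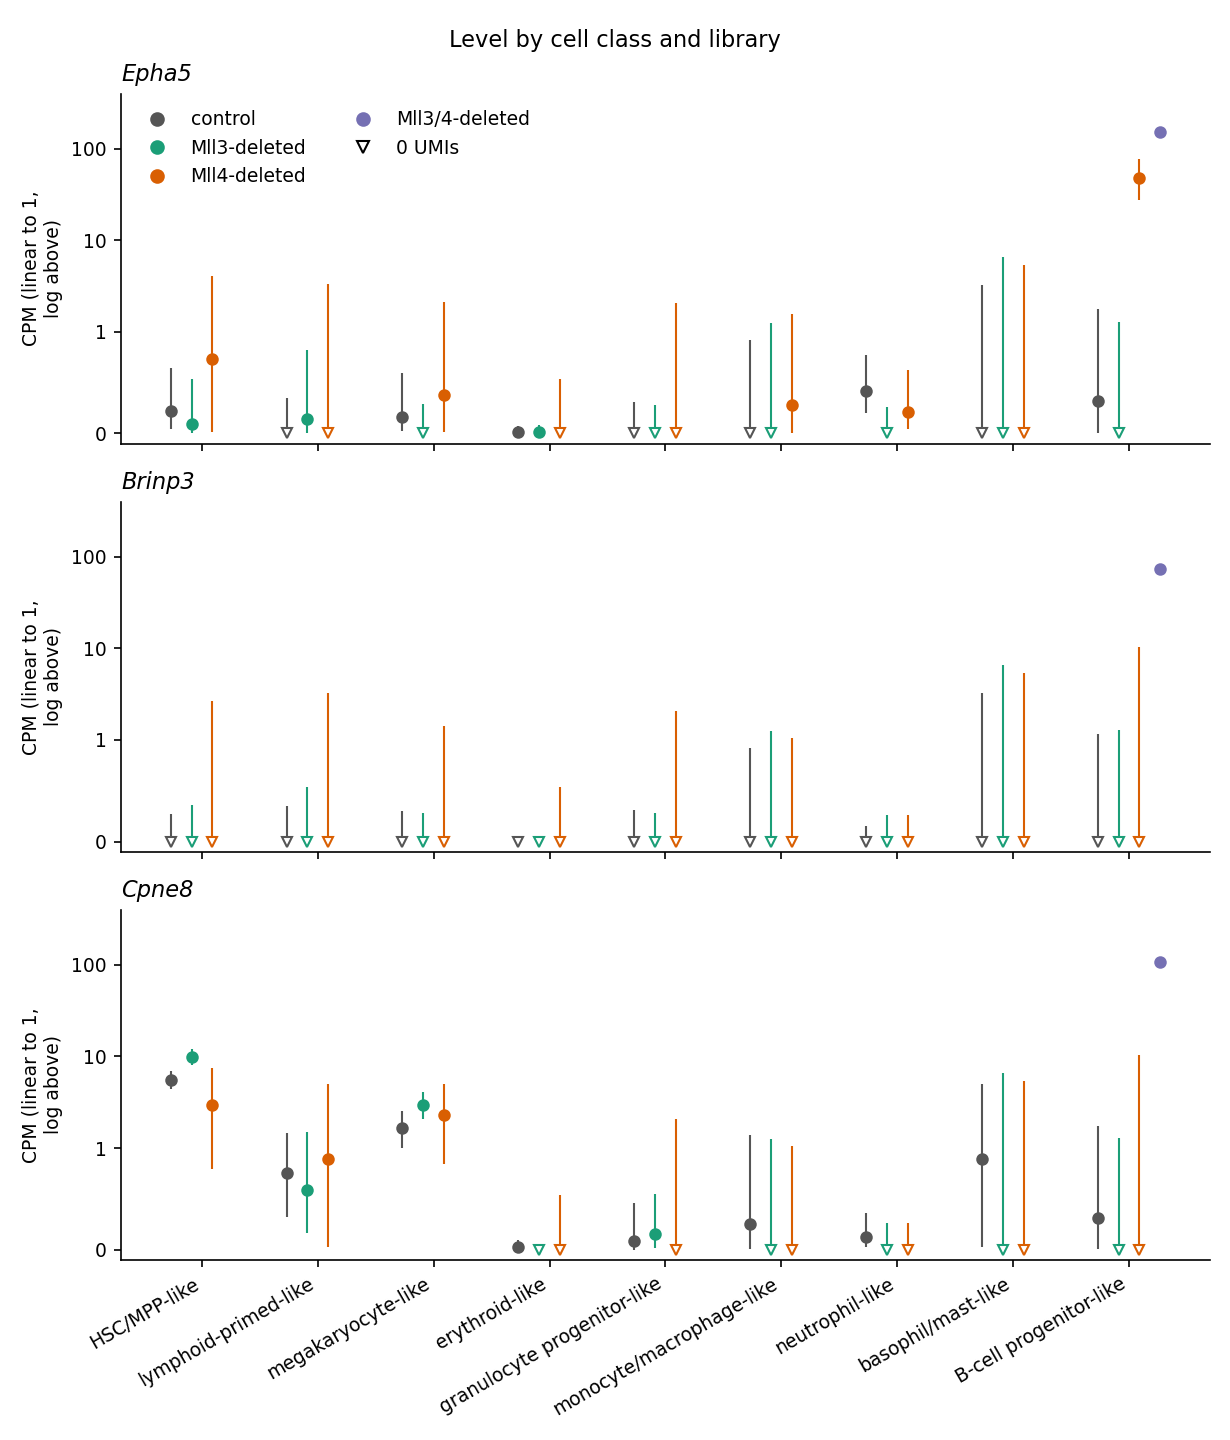
Level of each gene (CPM, linear to 1 and logarithmic above) by cell class and library, for classes with at least 50 cells in a library; bars are 95% intervals for counting error and open triangles mark 0 UMIs. Only B-cell progenitor-like cells reached 50 cells in the Mll3/4-deleted library, at 151.5 CPM for Epha5, 73.0 for Brinp3 and 108.4 for Cpne8, and Cpne8 alone has a second region of signal, in HSC/MPP-like and megakaryocyte-like cells.

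Other features of these cells differed between libraries beside the 3 genes. Summed over 9 markers, neutrophil RNA stood at 2436 CPM in the control B-cell progenitors, 1797 in the Mll3-deleted, 6353 in the Mll4-deleted and 78.5 in the Mll3/4-deleted library, with Mmp8 at 0 in all but the last. The 5 granulocyte progenitor markers summed to 782, 944, 831 and 36.3 CPM. Median depth was 4389, 6497, 2276 and 9936 UMIs per cell in the same order. The part of these differences in the results was not tested. Markers of stromal and endothelial cells summed to 2.29 CPM or less in every library, and of their 6 genes 5 were at 0 in control, 5 with Mll3 deleted, 6 with Mll4 deleted and 1, Cdh5, with Mll3/4 deleted. Cell cycle genes stood lower in the Mll3/4-deleted library than in control, with a median log2 ratio of -0.61 over 16 S phase and -0.68 over 16 G2/M genes, against 0.02 over all genes. Among them Birc5, which acts in chromosome segregation, stood at 409 CPM in control and 190.3 in the Mll3/4-deleted library. The part of cycling in the levels of the 3 genes between libraries was not tested.

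Before any cell class was assigned, the contrast between libraries was the same in kind. Over all kept cells Epha5 stood at 0.111 CPM in control, 0.0221 in the Mll3-deleted, 0.702 in the Mll4-deleted and 148.3 in the Mll3/4-deleted library. Brinp3 had 0 UMIs in each of the first 3 and stood at 71.4 CPM in the last. Cpne8 stood at 0.736, 1.08, 0.366 and 106.1 CPM. In all 26114 deposited barcodes of the control and single-deletion libraries, 372329380 gene UMIs held 62 of Epha5, 310 of Cpne8 and 0 of Brinp3. That 0 allows Brinp3 up to 0.00806 CPM by the floor of 3 counts. Fewer expressing cells and less RNA per cell cannot be told apart in such sums, and in the Mll3/4-deleted library 6830 of 6917 kept cells were B-cell progenitor-like.

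Cells of the same library outside the B-cell progenitors give a background for these shares. There were 87 such cells, with a median of 18804 UMIs against 9936 in the B-cell progenitors. A UMI of Epha5 was found in 5.75% of them (1.89 to 12.9) against 50.01% of the B-cell progenitors (48.8 to 51.2). For Brinp3 the shares were 2.30% (0.280 to 8.06) and 30.7% (29.6 to 31.8). For Cpne8 they were 11.5% (5.65 to 20.1) and 62.6% (61.5 to 63.8). The level outside was 10.7 CPM for Epha5, 2.25 for Brinp3 and 7.89 for Cpne8. With each cell thinned to 2000 UMIs, a UMI was found in 21.2% of B-cell progenitors for Epha5, 10.7% for Brinp3 and 21.1% for Cpne8, against 2.33% for Epha5 and 1.16% for Cpne8 outside. Brinp3 was counted in 0 of the 86 thinned cells outside, which allows a share of up to 3.49%. These shares include the values that chose the genes and are given as a description.

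Epha5 was the one gene of the 3 with UMIs in B-cell progenitors of a single-deletion library. The 17 UMIs of the Mll4-deleted library lay in 9 of 143 cells (6.29%, 2.92 to 11.6), with 1 to 4 UMIs each. The level of 47.7 CPM (27.8 to 76.4) was 152 times that of control (23.8 to 6346), and the Mll3/4-deleted library was 3.17 times higher still (1.98 to 5.45). The 17 UMIs are fewer than the 20 counts required of a gene in the comparison of the Mll4-deleted library with control, where 8.19% of 8733 genes were higher by a log2 ratio of 1 or more. Within cluster 0, which the libraries shared, the Mll4-deleted library had 15 UMIs in 76 cells (119.0 CPM, 66.6 to 196), control had 0 in 316 cells and the Mll3-deleted library had 0 in 216. The Mll4-deleted library was at least 50.04-fold higher than control there, with control set to 3 counts.

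None of the 9 cells had a barcode found in the Mll3/4-deleted library. They held 0 UMIs of Xist in 19985 gene UMIs, where 37.1 would be counted at the Xist level of the B-cell progenitors of the Mll3/4-deleted library. They also held 0 UMIs of Brinp3 and Cpne8. At the proportions to Epha5 seen in the Mll3/4-deleted library, 8.19 UMIs of Brinp3 and 12.2 of Cpne8 would accompany 17 of Epha5. Those proportions differed between the clusters of that library, and the origin of the 17 UMIs was not tested. The antibody against B220, a CD45 form on B-lineage cells, had a median count of 87 in the 9 cells and 176.5 in the other B-cell progenitors of that library. The antibody against CD117, the Kit protein, had a median of 111 and 80.

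The Epha5 signal of the Mll4-deleted library was uneven between its hashtags. Cells with Hashtag1 alone held 16 of the 17 UMIs, in 8 of 64 cells (95.4 CPM, 54.5 to 155). Cells with Hashtag2 alone held 1, in 78 cells (5.53 CPM, 0.140 to 30.8). The labels do not say whether the hashtags mark separate animals. A stricter cell filter, chosen after seeing the data, left 67 cells with 5 UMIs in 3 cells, or 22.0 CPM (7.15 to 51.4).

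**Figure D2:**
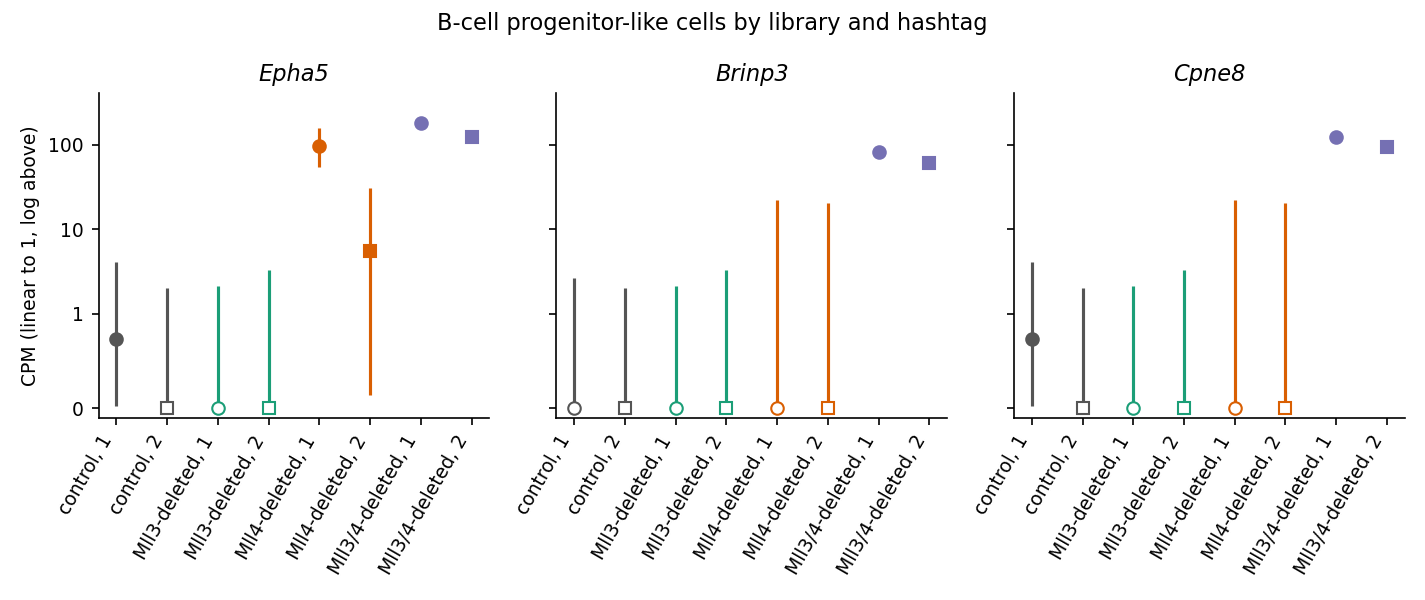
Level in B-cell progenitor-like cells (CPM, linear to 1 and logarithmic above) of each gene by library and hashtag, circles for Hashtag1 alone and squares for Hashtag2 alone, filled where a UMI was counted; bars are 95% intervals for counting error. Both hashtags of the Mll3/4-deleted library are high for all 3 genes, and in the Mll4-deleted library Epha5 stands at 95.4 CPM with Hashtag1 and 5.53 CPM with Hashtag2.

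In the Mll3/4-deleted library both hashtags carried the 3 genes, at levels that differed beyond counting error. Epha5 stood at 177 CPM (173 to 181) in 3672 cells with Hashtag1 alone and at 122 CPM (119 to 126) in 2980 cells with Hashtag2 alone. Brinp3 stood at 81.7 CPM (78.9 to 84.6) and 61.3 CPM (58.7 to 64.0). Cpne8 stood at 122 CPM (119 to 126) and 92.4 CPM (89.2 to 95.7). Each gene was higher with Hashtag1. The cells with Hashtag1 had a lower median CD117 antibody count, 186 against 368, and a similar depth, 9620 against 10269 UMIs.

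Outside the B-cell progenitors the 3 genes had different backgrounds. Brinp3 had 0 UMIs in every class of the control, Mll3-deleted and Mll4-deleted libraries. Epha5 had few UMIs, and in control most of them lay in neutrophil-like cells, 10 UMIs at 0.417 CPM (0.200 to 0.767), against none in those of the Mll3-deleted library (up to 0.212 CPM) and 3 with Mll4 deleted (0.214 CPM). In the other control classes with at least 50 cells, Epha5 had between 0 and 3 UMIs.

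Cpne8 alone of the 3 had more than 10 UMIs in a control class. In HSC/MPP-like cells, the stem cells and multipotent progenitors, it had 76 UMIs in 905 control cells (5.60 CPM, 4.41 to 7.01), 103 in 668 Mll3-deleted cells (9.97 CPM, 8.13 to 12.1) and 4 in 193 Mll4-deleted cells (2.92 CPM, 0.795 to 7.47). In megakaryocyte-like cells it had 20, 38 and 6 UMIs, at 1.64, 2.95 and 2.29 CPM. In lymphoid-primed-like cells it had 8, 4 and 1 UMIs, at 0.750, 0.587 and 0.892 CPM. The control HSC/MPP-like level was 3.41 times that of megakaryocyte-like cells (2.06 to 5.89) and 7.47 times that of lymphoid-primed-like cells (3.60 to 17.9). Megakaryocyte-like and lymphoid-primed-like levels had overlapping intervals in control. Neutrophil-like, granulocyte progenitor-like, monocyte/macrophage-like, basophil/mast-like and erythroid-like cells of control had 1 to 3 UMIs each.

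Within the HSC/MPP-like class the Cpne8 signal lay mostly in cluster 2. Control had 67 UMIs in the 601 cells of that cluster (9.87 CPM, 7.65 to 12.5) and 9 in the 304 cells of cluster 14 (1.33 CPM, 0.607 to 2.52). The Mll3-deleted library had 92 UMIs in 396 cells (20.9 CPM, 16.9 to 25.7) and 11 in 272 cells (1.85 CPM, 0.925 to 3.31). Over the class, the Mll3-deleted library was 1.78 times control (1.31 to 2.43), and the ratio ranged from 1.72 to 1.95 over 5 other clusterings and filters chosen after seeing the data. In megakaryocyte-like cells it was 1.79 times control (1.02 to 3.25). The Mll4-deleted library stood at 0.521 of control in HSC/MPP-like cells (0.138 to 1.39), an interval that includes no difference. Its cells lay mostly in cluster 14, with 151 there and 42 in cluster 2, where Cpne8 had 1 UMI (0.827 CPM, 0.0209 to 4.61) and 3 UMIs (18.4 CPM, 3.798 to 53.8). The B-cell progenitors of the Mll3/4-deleted library stood 19.4 times above the control HSC/MPP-like cells (15.4 to 24.6). In those B-cell progenitors the 8 HSC/MPP markers summed to 209 CPM against 48.4 in control, with 4 and 1 of them in at least 10% of cells and Procr at 0 in both; their part in the Cpne8 level was not tested. The 10 HSC/MPP-like cells of the Mll3/4-deleted library held 2 UMIs of Cpne8 and 0 of the others.

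Within the 6830 B-cell progenitors of the Mll3/4-deleted library the genes were spread unevenly over cells. Epha5 was counted in 3416 cells with up to 31 UMIs, Brinp3 in 2097 with up to 21, and Cpne8 in 4278 with up to 10. The tenth of cells with the most UMIs held 49.0% of the Epha5, 62.7% of the Brinp3 and 33.6% of the Cpne8 UMIs. After thinning, which removes differences in depth, the variance over the mean was 1.62 for Epha5, 1.40 for Brinp3 and 1.08 for Cpne8, where a Poisson count gives a variance equal to the mean. Of genes with a similar mean, 97.3% of 444 lay below Epha5, 96.9% of 900 below Brinp3 and 69.2% of 552 below Cpne8. By this measure Epha5 and Brinp3 were more uneven than most genes of like mean. Cpne8 lay close to the median of 1.05 for genes of like mean.

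**Figure D3:**
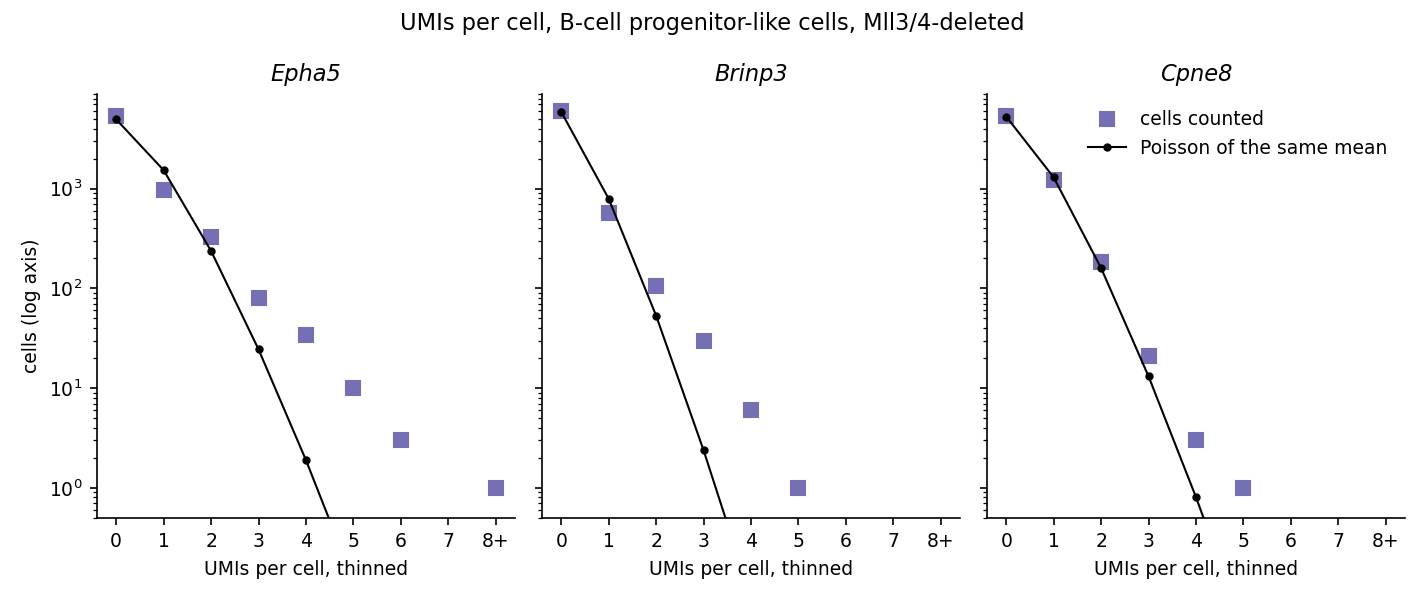
Number of B-cell progenitor-like cells of the Mll3/4-deleted library (logarithmic axis) by UMIs per cell after thinning to 2000 UMIs; squares are cells counted, and the line is a Poisson distribution of the same mean. For Epha5, 80 cells held 3 UMIs where the Poisson gives 24.5, for Brinp3 30 against 2.39, and for Cpne8 21 against 13.1.

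The 3 genes were only weakly detected together. No UMI of the 3 genes was counted in 1082 cells (15.8%), and all 3 were counted in 856 (12.5%). Brinp3 was counted in 34.9% of cells with Epha5 and in 26.5% of those without. After thinning these shares were 11.5% and 10.4%. For Cpne8 given Epha5, the thinned shares were 22.3% and 20.8%, and for Cpne8 given Brinp3 they were 23.1% and 20.9%. Over the 6747 thinned cells, Pearson's r was 0.036 for Epha5 with Brinp3, 0.015 for Epha5 with Cpne8 and 0.016 for Brinp3 with Cpne8. Before thinning, with depth differing between cells, r was 0.144, 0.106 and 0.114 in the same order. Thinned means were 0.31 UMIs per cell for Epha5, 0.13 for Brinp3 and 0.25 for Cpne8, and counts this sparse lower r. These cells share 1 library.

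Along the surface antibodies and the cell cycle, which did not enter the choice of the genes, the 3 parted. From the lowest to the highest quartile of the CD117 antibody, Epha5 was lower at every step, from 179 CPM (173 to 186) to 126 (122 to 131), and so was Cpne8, from 133 (127 to 139) to 93.2 (89.3 to 97.3). Brinp3 was higher at every step, from 61.9 CPM (58.1 to 65.9) to 82.2 (78.6 to 86.0). From the lowest to the highest quartile of B220, Epha5 was lower at every step, from 186 CPM (180 to 193) to 117 (112 to 121). Brinp3 went from 67.6 (63.7 to 71.6) to 78.6 (74.8 to 82.4), and Cpne8 lay between 104 and 114. Antibody counts were not normalized, and those of B220 were low, with a median of 6 in the lowest quartile and 43 in the highest. Median depth was also higher along CD117, from 8515 to 12043 UMIs per cell, and along B220, from 8342 to 11731, and its part in these patterns was measured only through thinning. In thinned cells Epha5 stood at 182 and 116 CPM in the lowest and highest CD117 quartile, Brinp3 at 53.7 and 80.7, and Cpne8 at 145 and 107. Those quartiles, of 1717 and 1705 cells, held 2851 and 2909 UMIs of Epha5, 983 and 1894 of Brinp3, and 2111 and 2147 of Cpne8. Epha5 and Cpne8 were thus lower as a share of RNA and not in UMIs per cell, and thinning also measures shares. Along B220, 1801 and 1631 cells held 3125 and 2469 UMIs of Epha5, 1135 and 1662 of Brinp3, and 1909 and 2286 of Cpne8.

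The share of a cell's UMIs from 16 S phase and 16 G2/M genes separated Cpne8 from the others. Cpne8 was lower at every step, from 152 CPM (146 to 159) in the quartile with the smallest share to 126, 105 and 75.2 (71.9 to 78.7) in the quartile with the largest. Epha5 stood at 170, 157, 143 and 144 CPM along the same quartiles. Brinp3 stood at 75.1, 69.9, 75.6 and 71.9 CPM. The median share of S and G2/M UMIs was 0.0423% in the lowest quartile and 1.01% in the highest, and median depth was 7792 and 14048 UMIs. Each of these quartiles had 1708 cells, with 2172 and 1945 UMIs of Cpne8, in 65.0% and 60.4% of cells. Per cell, Cpne8 thus differed far less than as a share of RNA. Epha5 had 2416 and 3724 UMIs there, and Brinp3 had 1070 and 1860. Cpne8 was also lower at every step of CD127, the interleukin-7 receptor, from 128 to 92.0 CPM. In UMIs it had 2083 in the 1743 cells of the lowest CD127 quartile and 2101 in the 1680 of the highest. Epha5 was lower at every step of CD135, the Flt3 receptor, from 167 to 128 CPM. Median CD135 counts were only 1 in the lowest quartile and 8 in the highest. In UMIs, Epha5 had 4973 in the 2891 cells of the lowest CD135 quartile and 2289 in the 1426 of the highest. In CPM, Epha5 was also lower at every step of the CD34, CD201 and Gr1 antibodies. For Cpne8 the same held along Sca1, CD150, CD48 and Gr1.

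**Figure D4:**
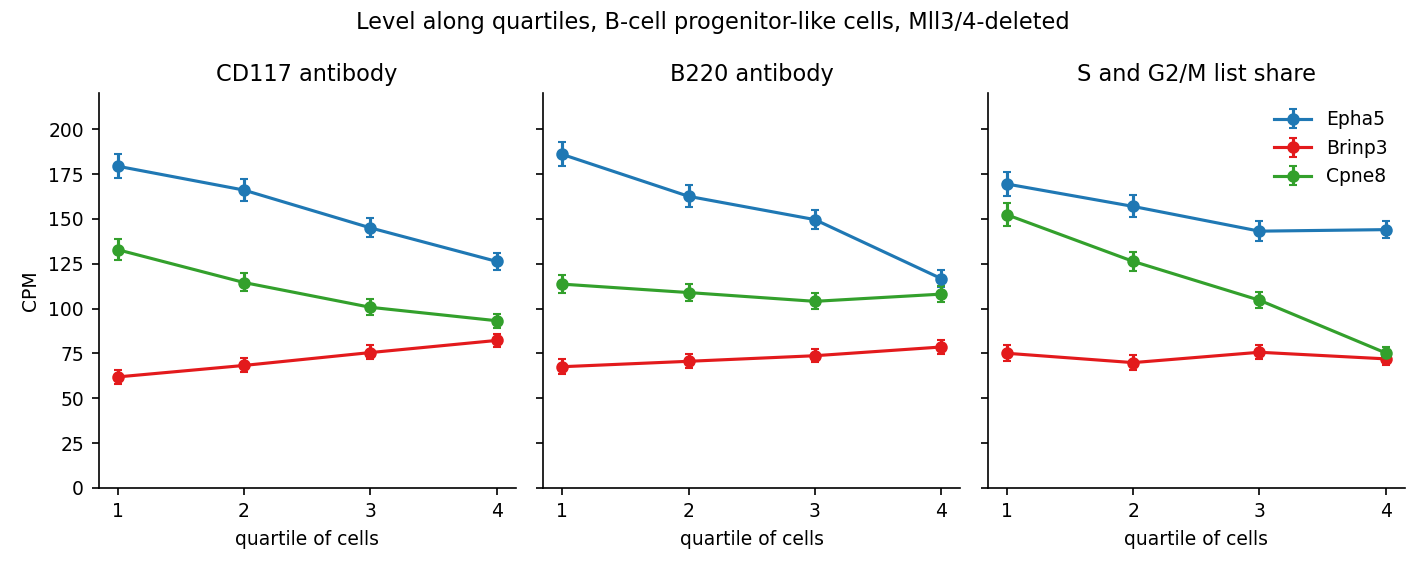
Level of each gene (CPM) in B-cell progenitor-like cells of the Mll3/4-deleted library by quartile, from lowest to highest, of the CD117 antibody, the B220 antibody and the share of S and G2/M UMIs; bars are 95% intervals for counting error. Epha5 is lower at the high end of CD117 and B220, Brinp3 is higher there, and Cpne8 goes from 152 to 75.2 CPM along the S and G2/M share.

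The same quartiles were taken within each hashtag. Along CD117, Epha5 stood at 185 and 168 CPM in the lowest and highest quartile with Hashtag1 and at 153 and 108 with Hashtag2. Brinp3 stood at 69.6 and 103 CPM with Hashtag1 and at 45.4 and 73.3 with Hashtag2. Cpne8 stood at 134 and 106 CPM, and at 105 and 87.1. The directions along CD117 held in both hashtags, and the decline of Epha5 was smaller with Hashtag1. Along B220, Epha5 stood at 212 and 135 CPM with Hashtag1, and at 146 and 97.5 with Hashtag2. Along the S and G2/M share, Cpne8 stood at 163 and 89.4 CPM with Hashtag1 and at 140 and 59.6 with Hashtag2. Epha5 along that share stood at 197 and 159 CPM with Hashtag1 but at 128 and 130 with Hashtag2, so its small decline there was seen with Hashtag1 only.

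Cells were also divided at the median S and G2/M share. In the lower part, Cpne8 stood at 153 CPM (144 to 162) in the lowest and 135 (127 to 142) in the highest CD117 quartile. In the upper part it stood at 109 (103 to 116) and 75.7 (71.1 to 80.6). Epha5 stood at 201 and 124 CPM in the lower part and at 164 and 129 in the upper part. Brinp3 stood at 59.5 and 85.5 CPM, and at 61.0 and 83.4. The opposite directions of Epha5 and Brinp3 along CD117, in CPM, were therefore present at low and at high cycling share.

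The clusters of the Mll3/4-deleted library ranked the genes differently. Cluster 22, with 3148 cells, stood at 175 CPM of Epha5, 78.4 of Brinp3 and 117 of Cpne8. Cluster 24, with 1813 cells, was lower in Epha5, at 120 CPM, and highest in Cpne8, at 152. Cluster 26, with 1357 cells, stood at 141 CPM of Epha5, 70.2 of Brinp3 and 70.3 of Cpne8. Cluster 25, with 301 cells, stood at 148, 73.4 and 76.4 CPM. Cluster 23, with 205 cells and a median of 3708 UMIs, was the lowest in Epha5 and Brinp3, at 86.2 and 19.2 CPM, and stood at 82.6 CPM of Cpne8. Brinp3 was counted in 6.34% of the cells of cluster 23 (3.42 to 10.6), and after thinning in 3.93%, against 11.8% in cluster 22.

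Cells with a thinned UMI of a gene were set beside those without, over 6833 genes with enough counts, by a rule chosen after seeing the data. Cells with Epha5 were 1433 of 6747. They were higher in Fstl5, a follistatin-like gene, at 30.2 against 15.1 CPM, in the cannabinoid receptor Cnr1, at 71.0 against 40.3, and in Rdh10, a retinol dehydrogenase, at 79.6 against 45.2. Both Fstl5 and Cnr1 had 0 UMIs in the control B-cell progenitors. A log2 ratio of at least 0.5 was reached upward by 13 genes and downward by 1, the gene Ankrd6. Cells with Brinp3, 719 of 6747, were higher in the protocadherin Pcdh7, at 27.2 against 13.2 CPM, and in Fstl5, at 33.5 against 16.4. They were lower in Hoxa10, at 7.71 against 14.3 CPM, and in the interferon-induced genes Ifi44, at 10.3 against 17.5, and Isg15, at 12.5 against 20.5. For Brinp3, 6 genes were higher and 10 lower by this measure.

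Cells with Cpne8, 1423 of 6747, were higher in Nt5e, which encodes the ectoenzyme CD73, at 19.2 against 11.9 CPM, and in Slfn2, at 104 against 71.1. Slfn2 was lower in the cells with Brinp3, at 54.7 against 80.4 CPM. Cells with Cpne8 were lower in genes of mitosis and chromosome segregation, among them the kinesin Kif18b, at 7.87 against 15.3 CPM, the cohesin acetyltransferase Esco2, at 65.0 against 110, and the kinetochore gene Nuf2, at 23.0 against 38.3. By this measure 117 genes were lower and 6 higher. The 16 G2/M genes had a median log2 ratio of -0.56 in cells with Cpne8, -0.15 with Epha5 and -0.02 with Brinp3, against 0.01, 0.00 and 0.01 over all genes. Cells with Cpne8 had fewer UMIs on average, 10180 against 11508.

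Relatives of the 3 genes were compared between B-cell progenitors of the control and Mll3/4-deleted libraries. Of 13 other Eph receptors, 3 had at least 20 counts in control or the Mll3/4-deleted library, 0 were higher by a log2 ratio of 1 or more and 1 was lower, where 9.45% and 7.39% of all genes measured were higher and lower. That one was Epha2, at 7.23 CPM in control (23 UMIs) and 0.132 in the Mll3/4-deleted library (10 UMIs), a log2 ratio of -2.86. With a pseudocount of 0.1 CPM, 2 receptors were higher and 1 was lower. Ephb6, with the most UMIs, stood at 0.629 and 1.91 CPM. Of the 13, 6 had 0 UMIs in the B-cell progenitors of the Mll3/4-deleted library, and Epha3 and Epha7 had 9 and 2. Ephb2, under the count minimum and named after its values were seen, had 7 UMIs in control and 0 in the Mll3/4-deleted library. The median log2 ratio of the 3 measured receptors was 0.53, against 0.02 over all genes. It is the value of Ephb3, with 0 UMIs in control and 34 in the Mll3/4-deleted library. Ephb3 reached the count minimum only through the Mll3/4-deleted library, as did Ephb6, with 2 control UMIs. The 0.448 CPM of Ephb3 there is below the 0.943 CPM that a control count of 0 allows. So the median does not measure a shift of the receptors.

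Ephrins are the ligands of Eph receptors. Of 8 ephrins, 6 were measured, 3 were higher by a log2 ratio of 1 or more and 0 were lower, beside 9.45% and 7.39% of all genes, and their median was 0.80. All 3 were ephrin-A genes. The ephrin-A genes Efna2 and Efna3 were not measured, with 4 and 1 UMIs in the Mll3/4-deleted library and 0 in control. Efna5 had 4 UMIs in control (1.26 CPM) and 1904 in the Mll3/4-deleted library (25.1 CPM), a log2 ratio of 3.53. Efna1 stood at 0.629 and 5.22 CPM, and Efna4 at 2.20 and 8.34 CPM. The ephrin-B genes Efnb1, Efnb2 and Efnb3 had log2 ratios of -0.13, -0.63 and 0.04. The control values rest on 2 to 7 UMIs for Efna1, Efna4 and Efna5, and on 1 to 5 for the ephrin-B genes. All 6 measured ephrins reached the count minimum only through the Mll3/4-deleted library. Their counts past the threshold and their median therefore do not measure a shift of the ephrins as a set.

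**Figure D5:**
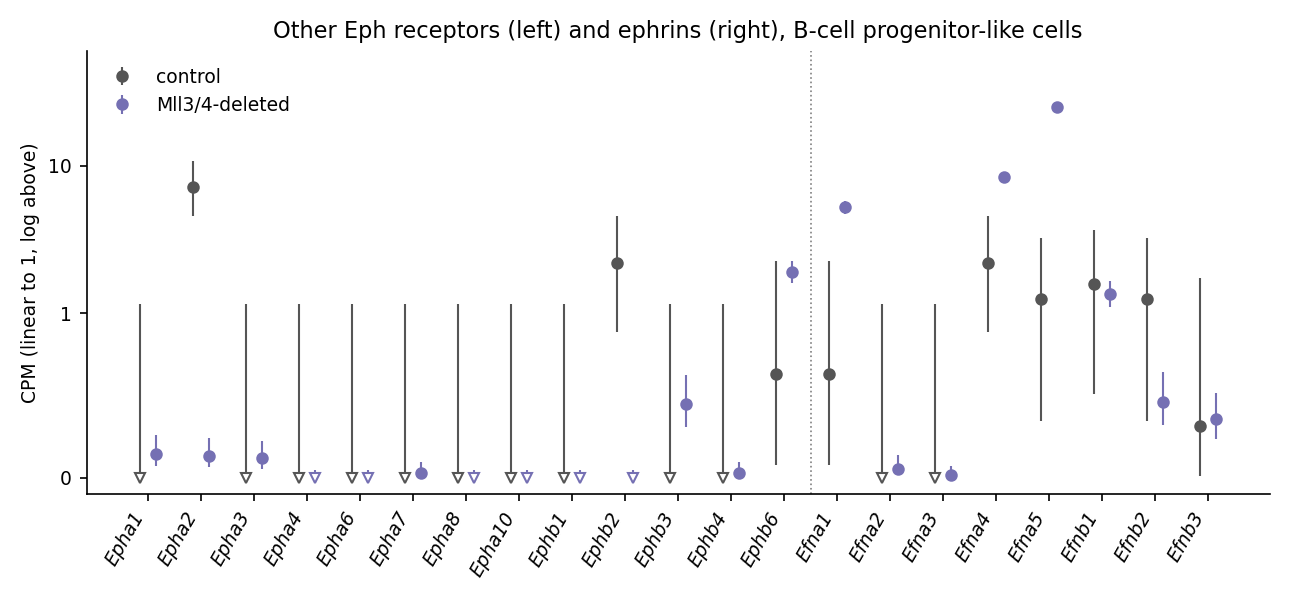
Level (CPM, linear to 1 and logarithmic above) of the other Eph receptors and of the ephrins in B-cell progenitor-like cells, control against Mll3/4-deleted; bars are 95% intervals for counting error and open triangles mark 0 UMIs. Efna1, Efna4 and Efna5 are higher in the Mll3/4-deleted library and Epha2 is lower, while most receptors lie at or near 0.

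Of 14 genes of Eph signalling, 12 were measured, 2 were higher and 1 was lower, with a median of 0.46. With so few genes these counts are near the 9.45% and 7.39% of all genes. Yes1, a Src-family kinase, stood at 0.629 CPM in control (2 UMIs) and 22.0 in the Mll3/4-deleted library. Inppl1, the phosphatase SHIP2, stood at 2.51 (8 UMIs) and 25.2 CPM. Both reached the count minimum only through the Mll3/4-deleted library. With Mll3 and Mll4 deleted singly, Yes1 stood at 4.51 (13 UMIs) and 5.61 CPM (2 UMIs). Inppl1 stood at 6.95 (20 UMIs) and 14.0 CPM (5 UMIs) there. Vav3, a guanine nucleotide exchange factor, stood at 32.4 and 10.5 CPM. The adaptor Nck1, with the most UMIs, stood at 61.0 and 79.3 CPM. The other BRINP genes, Brinp1 and Brinp2, had 0 UMIs in the B-cell progenitors of every library. Of 8 other copines, 3 were measured and 0 were past a log2 ratio of 1 in either direction. Cpne1 stood at 30.2 CPM in control and 32.1 in the Mll3/4-deleted library, Cpne2 at 11.9 and 5.61, and Cpne3, with the most UMIs, at 44.9 and 37.5.

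Since Epha5 and Brinp3 are best known from the nervous system, 15 markers of neurons and glia were looked at. Of these, 5 were measured, 2 were higher and 0 were lower, beside 9.45% and 7.39% of all genes, with a median of 0.91. The higher ones were Map2, a microtubule protein of dendrites, at 0.629 CPM in control and 6.72 in the Mll3/4-deleted library, and Syt1, a calcium sensor of synaptic vesicles, at 0.314 and 1.77. Map2 rests on 2 control UMIs. Syt1 rests on 1 control UMI, and the interval of its log2 ratio without a pseudocount, -0.01 to 7.80, includes no difference. Of the 5 measured, only Mbp reached the count minimum in control. Mbp, with the most UMIs, stood at 42.4 and 21.6 CPM. The median of 0.91 is the value of Gap43, with 0 UMIs in control and 67 in the Mll3/4-deleted library. Its 0.883 CPM there is below the 0.943 CPM that a control count of 0 allows. In the Mll3/4-deleted library 6 of the 15 had 0 UMIs, among them Snap25, Stmn2, Dcx and Sox10, and Tubb3, Rbfox3 and Elavl4 had 4, 2 and 1.

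The neighbours on each chromosome were counted in the same B-cell progenitors. Within 500 kb of Epha5, GENCODE annotates 8 genes, of which 1 was in the feature lists, the long noncoding RNA Gm43532, with 20 UMIs in the Mll3/4-deleted library and 0 in those of the other libraries. Its level of 0.264 CPM is below what a count of 0 allows there. Within 500 kb of Brinp3, 8 are annotated, 3 were in the lists and 2 were measured. Both overlap Brinp3 on the opposite strand. Gm29514 had 55 UMIs in the Mll3/4-deleted library (0.725 CPM, also below those limits) and 0 in the others, and A230059L01Rik stood at 1.89 CPM in control and 4.47 in the Mll3/4-deleted library. Whether counting used the strand is not given in the sources used here, so reads of the overlapping part may not be separable. Within 500 kb of Cpne8, 17 are annotated, 6 were in the lists and 3 were measured. Kif21a, a kinesin, had 0 UMIs in control and 159 in the Mll3/4-deleted library (2.10 CPM). Abcd2 stood at 0.629 and 2.24 CPM, and Alg10b at 17.6 and 21.3. Of the 6 measured neighbours, Kif21a alone was past a log2 ratio of 1, at 1.63, where 9.45% of all genes were higher by that much. In B-cell progenitors, Gm43532, Gm29514 and Kif21a had UMIs with Mll3/4 deleted and none in any other library. For Gm43532 and Gm29514 the level lay below what a count of 0 allows in each other library. For Kif21a it lay below what a count of 0 allows in the Mll4-deleted library.

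The genes most like each member were sought over 31 combinations of library and class with at least 50 cells, 30 of them outside the Mll3/4-deleted library, among 12081 genes. These points share libraries and depth, and a single one of them holds nearly all the signal, so the likeness is a description. For Epha5 they were Ccn5, Trpc4, Gm15402, 5330426L24Rik and Npas3, with Pearson's r of 0.985 to 0.988 on log2(CPM + 1). Each had 1 to 3 UMIs in the B-cell progenitors of the Mll4-deleted library, but these cells entered the correlation that chose the genes. For Brinp3, 52 of the 12081 genes had 0 UMIs in all 30 other combinations. Those with the most UMIs besides Brinp3 included Ackr3, an atypical chemokine receptor, Gabrb2, a subunit of the GABA-A receptor, 2610028E06Rik and Hs3st2. Ackr3 stood at 40.1 CPM in the Mll3/4-deleted library. For Cpne8 they were Clip3, Ncam2, Tmem136, Mb21d2 and Mfap2, with r of 0.908 to 0.932. Ncam2, a neural cell adhesion gene, stood at 0.629 CPM in control B-cell progenitors and 23.1 in those of the Mll3/4-deleted library.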

How the data were processed

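Kit+ CD45.2+ bone marrow cells were profiled in 4 libraries, 1 per group. The authors deposited UMI counts per gene, antibody and barcode, made with Cell Ranger 6.1.2 on mm10, per the submitters' processing notes, and not normalized. Gene symbols and barcodes were read from the deposited lists. Barcodes with at least 500 genes, 1000 UMIs and at most 10% mitochondrial UMIs were kept. The highest Scrublet scores were removed as doublets at 0.8% per 1000 barcodes. Of cells left after filters this took 5.29% to 8.01%. Kept cells were clustered together in scanpy 1.11.5 (2000 variable genes without Epha5, Brinp3 and Cpne8, 30 components, 15 neighbours, Leiden resolution 1, seed 0). Clusters were named from 93 markers of 14 classes. A name needed 3 or more of its markers in 10% or more of the cells.

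Counts were summed per class and library and divided by the total of gene UMIs (CPM). Levels have exact Poisson intervals, shares exact Clopper-Pearson intervals and ratios exact conditional binomial intervals, at 95%. A count of 0 was set to 3 counts for bounds. PCR and capture noise is not covered, and counts were not corrected for free RNA. Log2 ratios had a pseudocount of 1 CPM and needed 20 counts in either library. Thinning drew 2000 UMIs per cell. Hashtag thresholds were set from the data of each library. The scripts were tested on simulated data. TMM factors came from edgeR 4.0.16. Of 32285 gene identifiers, 32158 occur in GENCODE M21. The genes and lists were chosen with earlier results of these data known. Genes named beside the 3 were those of each list past a log2 ratio of 1, the one with the most UMIs, neighbours within 500 kb and the 5 most alike, with ties ordered by UMIs. A gene that met this rule and some marker genes are not reported here. Alternatives were other cell filters, clusterings, scalings, pseudocounts and thinning.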

Additional observations from a re-analysis of the deposited data

How the results depend on the processing

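No log2 ratio of the 3 genes between libraries changed sign under the alternatives run. Over all B-cell progenitors of the Mll3/4-deleted library, none along CD117, B220 or the S and G2/M share did so with thinning. Within Hashtag2, Epha5 along that share stood at 128 and 130 CPM. The highest over the lowest B220 quartile of Cpne8 was 0.951, but 1.01 within Hashtag1 and 1.02 at the lower cycling share. Along other antibodies some small log2 ratios changed sign with thinning, as for Brinp3 along Sca1 (-0.05 to 0.10) and CD34 (0.21 to -0.002). Of all values, 79 stayed within the counting interval of the reported value or, for counts of genes, within 1.5 times it, and 25 did not. With a pseudocount of 0.1 CPM the log2 ratios in B-cell progenitors were 8.52 for Epha5, 9.51 for Brinp3 and 8.03 for Cpne8, and over all kept cells 9.46, 9.48 and 6.99. With no pseudocount they were 8.91, 6.27 and 8.43. TMM scaling moved the median of all genes by 0.11 and put Brinp3 at 6.34, all deposited barcodes put Brinp3 at 6.26 over all cells, and thinning put Cpne8 at 6.95. Thinning lowered the shares of cells with a UMI to 21.2% for Epha5, 10.7% for Brinp3 and 21.1% for Cpne8. In thinned cells the log2 ratio of the highest over the lowest quartile was -0.65 for Epha5 and 0.59 for Brinp3 along CD117, and -0.18 for Brinp3 and -1.20 for Cpne8 along the S and G2/M share. The stricter cell filter, chosen after seeing the data, put Epha5 in the Mll4-deleted library at 22.0 CPM. A pseudocount of 0.1 CPM gave 2 higher Eph receptors beside the 1 lower, 1 lower ephrin, 1 lower copine, 3 higher genes of Eph signalling and 4 higher neural markers, and no count minimum gave 2 lower Eph receptors. No paired analysis was possible because each group has 1 library, and no replicate could be left out. The causes of these moves were not tested, beyond the pseudocount and the fewer cells and UMIs that the settings themselves impose. Depth limits the Mll4-deleted library most, where 0 UMIs in B-cell progenitors allows 8.42 CPM.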
